A study of Mus musculus with 6 samples.

Results

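The 10 genes described here encode muscarinic and nicotinic acetylcholine receptors and the enzyme that degrades acetylcholine. They are the muscarinic receptor genes Chrm1, Chrm2, Chrm3, Chrm4 and Chrm5, the nicotinic subunit genes Chrna4, Chrna5, Chrna7 and Chrnb2, and Ache, which encodes acetylcholinesterase. They were picked out by gene symbol alone, but as a set they were chosen with earlier results of these data known. Each had 1 row among the 16060 rows of the deposited expression table. Hippocampal RNA of C57BL/6 mice was sequenced from 3 mice that received saline (control) and 3 mice treated with methamphetamine (MA), with 1 library per mouse. According to the study's methods, the mice were adult males, MA was injected in doses that escalated from week to week, and behavioral tests preceded tissue collection, so both groups had also been through these tests. The age in weeks is not given in the sources used here. Control and MA libraries below are the libraries so labelled. Of the immediate early genes, which psychostimulants are known to induce, Arc, Fos, Egr1 and Nr4a1 were looked up after their values were seen, and each was lower in the libraries labelled MA. Their log2 fold changes were -1.80, -1.61, -1.46 and -1.45, and the adjusted p from limma was between 0.0181 (Arc and Egr1) and 0.0315 (Fos). The study reports the opposite direction, with Arc, Fos, Egr1 and Nr4a1 upregulated by MA in its RNA-seq and in its qPCR. Whether the group labels of the columns were exchanged could not be settled from the sources used here. Each direction below therefore rests on the labels and would turn with them. Levels are the deposited values, read as log2 of RPKM (mapped reads scaled by transcript length and by library size) plus 1.

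Acetylcholine reaches the hippocampus mainly through axons of cholinergic neurons whose cell bodies lie in the medial septum and diagonal band. It acts on G protein-coupled muscarinic receptors and on nicotinic receptors, which are ion channels built from subunits. The odd-numbered muscarinic receptors couple to Gq/11 and phospholipase C, the even-numbered ones to Gi/o, which lowers cAMP and opens inwardly rectifying potassium channels. Acetylcholinesterase hydrolyses the transmitter in the synaptic cleft, and this cholinergic input is known for its part in attention, memory encoding and theta rhythm.

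The table holds no read totals. Library depth therefore cannot be stated, and neither can an interval that rests on read counts. The libraries had been brought to a near-common distribution before deposit. The library labelled MA replicate 3 stood apart, with a mean Pearson correlation of 0.978 with the other MA libraries across 13321 tested genes, against 0.984 to 0.993 for the remaining 5 libraries with their own groups. Markers of hippocampal neurons were present in each library, with 10 of 10 detected and a summed level of 248 to 333 RPKM in the control and 225 to 263.5 RPKM in the MA libraries. Of 9 choroid plexus markers, 9 had a higher mean in the MA libraries and 4 passed the adjusted threshold (limma). Their summed level was 67.2 to 422.5 RPKM in the control and 1783 to 5088 RPKM in the MA libraries. Ttr made up most of this sum in each library, and in MA replicate 3 it stood at the highest value of the table. Each of the 6 libraries had this same maximum of 12.3 on the log2 scale. The size of the Ttr level there, and of the sum, thus depends on the normalization between libraries. The log2 fold change of Ttr was 4.09, and those of the other choroid plexus markers ran from 1.27 (Prlr) to 2.10 (Folr1). Of 5 blood markers, 5 had a higher mean and 3 passed, with sums of 1599 to 2024 RPKM in the control and 3319 to 4378 RPKM in the MA libraries. In tissue RNA, fewer cells of a type and less RNA per cell cannot be told apart.

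In none of the 9 tested genes did the difference between the groups pass an adjusted p-value of 0.05 (limma with Benjamini-Hochberg adjustment over 13321 genes), while 35 genes, 0.263% of those tested, passed it in the whole table (0.165% higher and 0.0976% lower in the MA libraries). An unadjusted p-value under 0.05 was reached by 3 of the 9, namely Chrna5, Ache and Chrm3, beside 10.4% of all tested genes. In Chrna5, Chrm1 and Ache each MA library lay on one side of each control library. This holds for 3 of the 9, beside 17.5% of all tested genes (7.32% with the MA libraries higher, as for Ache, and 10.2% with them lower, as for Chrna5 and Chrm1). Of the 9 genes, 6 had a lower and 3 a higher mean in the MA libraries, with a median log2 fold change of -0.079 against -0.010 over all tested genes. Of all tested genes, 52.7% had a lower mean in the MA libraries. Chrm5 did not pass the filter, which asked for at least 0.5 RPKM in 3 or more of the 6 libraries.

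**Figure D1:**
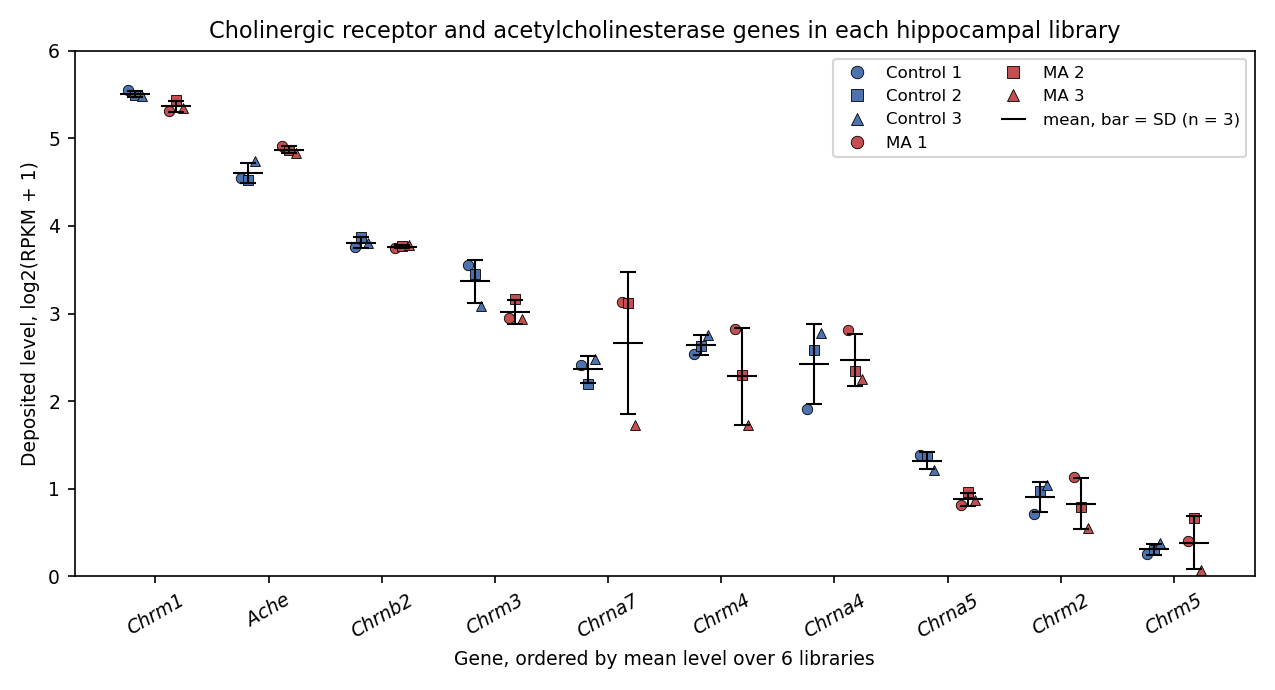
Deposited level of each gene, as log2 of RPKM plus 1, in the 3 control and 3 MA libraries, with the genes ordered by mean level and black bars for the group mean and SD. The MA points of Chrna5 and Chrm1 lie below the control points and those of Ache above them, while MA replicate 3 lies far below the other MA libraries in Chrna7.

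Chrm1 was the most abundant of the 10 on the scale of RPKM, which is per length, with a mean level of 42.4 RPKM over the 6 libraries. Ache followed with a mean of 25.8 RPKM, Chrnb2 with 12.8 RPKM and Chrm3 with 8.26 RPKM. The ranges over 6 libraries of these 4 genes did not overlap. Below them, Chrna7, Chrm4 and Chrna4 had mean log2 levels of 2.51, 2.46 and 2.45, and neither neighbouring pair differed beyond its spread, with each order held by 3 of the 6 libraries. Chrm3 and Chrna7 also overlapped in range, with Chrm3 higher in 5 of the 6 libraries. Chrna4 exceeded Chrna5 in 6 of 6 libraries without overlap, whereas the range of Chrm2 (mean log2 level 0.87) overlapped both that of Chrna5 (1.10) and that of Chrm5 (0.34). Within libraries, Chrna5 exceeded Chrm2 in 5 of 6 and Chrm2 exceeded Chrm5 in 6 of 6. Chrm4 and Chrm5 are annotated in GENCODE M21 as coding length only, with 1440 and 1599 exonic bases, so their level per length relative to the other genes depends on the gene model used for counting.

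The RNA of cholinergic neurons themselves was scarce. The log2 levels of Chat, the enzyme that makes acetylcholine, were 0.11, 0 and 0.18 in control replicates 1, 2 and 3 and 0.38, 0.12 and 0.16 in MA replicates 1, 2 and 3. Slc18a3, the vesicular acetylcholine transporter, and Slc5a7, the high-affinity choline transporter, stayed at log2 levels of at most 0.55 in the 6 libraries. Of the 6 markers of cholinergic neurons, 5 had a row and 0 passed the filter, and their summed level was 0.168 to 1.13 RPKM in the control and 0.546 to 1.02 RPKM in the MA libraries.

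RefSeq windows from 250 bases before to 50 bases after an annotated start, on GRCm38.p6, were found for 9 of the 10 genes, as 10 windows, and no window was at hand for Chrm1. They were searched on both strands for the Sp1 GC box GGGCGG, the Egr motif GCGNGGGCG, the cAMP response element TGACGTCA, the AP-1 motif TGANTCA and the E-box CACGTG. The GC box was found in 7 of the 10 windows and in 35.7% of all 32851 windows in the reference. The Egr motif was found in 2 of the 10, those of Ache and Chrna7, and in 5.55% of all windows. The E-box was found in the same 2 windows and in 7.15% of all. The cAMP response element and the AP-1 motif were found in 0 of the 10 and in 1.79% and 7.81% of all windows. A match describes letters in a window and not a bound site. The windows of 3 genes on which the results below turn are printed with their motif matches in capitals, and both Egr matches of Ache overlap GC boxes. The Chrna5 window shown is the second of its 2 annotated starts, and the window of the first, on chromosome 9 from 54980630 to 54980929, held none of the 5 motifs.
Ache, chr5:137288004-137288303, plus strand: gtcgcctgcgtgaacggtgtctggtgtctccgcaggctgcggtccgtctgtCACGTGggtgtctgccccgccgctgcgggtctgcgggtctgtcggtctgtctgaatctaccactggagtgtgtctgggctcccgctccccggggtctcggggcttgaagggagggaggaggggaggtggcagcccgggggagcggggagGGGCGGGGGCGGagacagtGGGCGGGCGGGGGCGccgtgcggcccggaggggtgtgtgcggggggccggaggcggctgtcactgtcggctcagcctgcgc
Chrna5, chr9:54981238-54981537, plus strand: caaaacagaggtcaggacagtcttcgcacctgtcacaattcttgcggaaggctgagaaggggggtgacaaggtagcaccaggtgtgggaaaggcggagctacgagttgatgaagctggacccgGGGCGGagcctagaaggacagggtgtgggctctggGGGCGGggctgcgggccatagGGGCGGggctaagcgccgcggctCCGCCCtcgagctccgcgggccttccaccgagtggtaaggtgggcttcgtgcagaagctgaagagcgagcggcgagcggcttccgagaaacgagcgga
Chrna7, chr7:63212477-63212776, minus strand: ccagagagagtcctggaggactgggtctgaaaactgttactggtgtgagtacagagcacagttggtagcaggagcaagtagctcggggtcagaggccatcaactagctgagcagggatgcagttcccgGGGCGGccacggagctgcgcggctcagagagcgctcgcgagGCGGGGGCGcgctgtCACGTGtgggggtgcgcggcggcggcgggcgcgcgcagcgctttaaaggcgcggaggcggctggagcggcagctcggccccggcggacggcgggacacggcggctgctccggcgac

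Among the muscarinic receptors coupled to Gq/11, Chrm1 (Ensembl ENSMUSG00000032773), the main receptor of pyramidal and granule cells, lies on chromosome 19 of GRCm38 from 8663789 to 8683587. Its log2 levels were 5.55, 5.50 and 5.48 in control replicates 1, 2 and 3 and 5.31, 5.44 and 5.35 in MA replicates 1, 2 and 3. Each MA library lay below each control library, by at least 0.045 on the log2 scale. The log2 fold change was -0.14 (standard error 0.075, 95% interval -0.32 to 0.03, limma adjusted p = 0.580), and an exact two-sided permutation test returned p = 0.1, which is as low as a design of 3 against 3 can reach. Chrm1 shares 329 exonic bases with a small RNA gene on the opposite strand, and strand use in counting is not given in the sources used here. Of 10 markers of hippocampal neurons, 9 also had a lower mean in the MA libraries, beside 52.7% of all tested genes. The adjusted threshold (limma) was passed by 0 of these markers. The groups did not overlap in 2 of the 10, beside 17.5% of all tested genes. An unadjusted p-value under 0.05 (limma) was reached by 3, beside 10.4% of all tested genes. The part of these markers in the Chrm1 difference was not tested.

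Chrm3, a further receptor of this class in hippocampal neurons, spans chromosome 13 from 9875486 to 10360847, with 6 exonic stretches. It had log2 levels of 3.56, 3.45 and 3.09 in control replicates 1, 2 and 3. In the MA libraries they were 2.94, 3.17 and 2.94. The groups overlapped only through control replicate 3, which lay below MA replicate 2. The log2 fold change of -0.35 (standard error 0.14, 95% interval -0.68 to -0.01) had an unadjusted p of 0.0430 and an adjusted p of 0.459 (limma). Chrm5, best known from midbrain dopamine neurons, was at the edge of detection, with log2 levels of 0.25, 0.30 and 0.37 in the control and 0.40, 0.67 and 0.07 in the MA libraries. The MA libraries of Chrm5 lay on both sides of the control libraries, and 1 of the 6 libraries reached 0.5 RPKM.

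Chrm4, a Gi/o-coupled receptor, lies in a single exonic stretch on chromosome 2 from 91927249 to 91928688. It had log2 levels of 2.54, 2.63 and 2.76 in control replicates 1, 2 and 3. The MA libraries read 2.83, 2.30 and 1.72, so MA replicate 1 was the highest of the 6 and MA replicate 3 the lowest. The log2 fold change was -0.36 (standard error 0.25, 95% interval -0.95 to 0.24, limma adjusted p = 0.689) and it ran from -0.63 without MA replicate 1 to -0.078 without MA replicate 3. Chrm2, the other Gi/o-coupled receptor, which acts as an autoreceptor on cholinergic terminals, spans chromosome 6 from 36388084 to 36528414. It had log2 levels of 0.72, 0.97 and 1.04 in the control libraries. In the MA libraries they were 1.14, 0.80 and 0.56, again with MA replicate 1 highest and MA replicate 3 lowest. Its log2 fold change of -0.079 (95% interval -0.49 to 0.33, limma adjusted p = 0.919) turned to 0.058 without MA replicate 3. Chrm2 shares 142 exonic bases with a long noncoding RNA gene on the opposite strand.

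Summed over the 5 muscarinic receptors, the level was 62.1, 60.5 and 58.2 RPKM in control replicates 1, 2 and 3 and 53.1, 55.5 and 49.3 RPKM in the MA libraries. The groups did not overlap, with means of 60.3 ± 1.94 and 52.6 ± 3.16 RPKM (SD with n = 3 per group, exact two-sided permutation p = 0.1). Most of this sum is Chrm1, so its separation is not independent of that of Chrm1 given above. The alternative settings were not run for the sum. Chrm1 held 73.8% ± 0.97 of this sum in the control and 76.6% ± 3.89 in the MA libraries (SD with n = 3 per group, exact two-sided permutation p = 0.3). The Gi/o-coupled receptors together held 8.76%, 10.2% and 11.7% in the control and 13.7%, 8.41% and 5.62% in the MA libraries (exact permutation test, two-sided, p = 0.8). The spread of this share among the MA libraries exceeded the difference between the group means. Chrm1 thus held most of the muscarinic RNA in each of the 6 libraries, with between 73.0% and 80.8%.

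**Figure D2:**
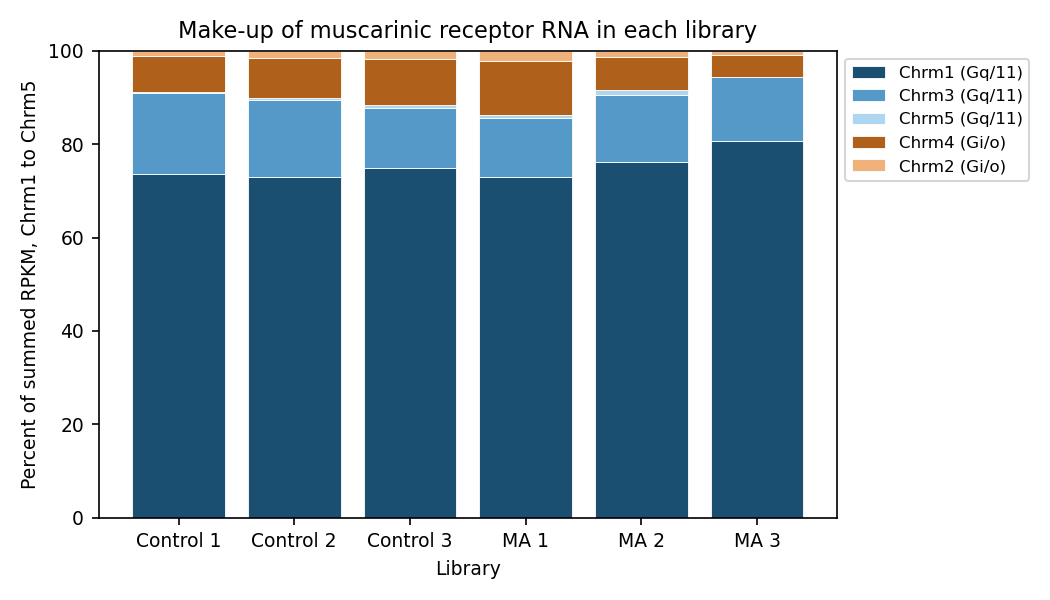
Share of each receptor in the summed RPKM of Chrm1 to Chrm5, in percent, for each of the 6 libraries, with Gq/11-coupled receptors in blue and Gi/o-coupled receptors in orange. Chrm1 fills between 73.0% and 80.8% of each bar, and the orange share runs from 5.62% in MA replicate 3 to 13.7% in MA replicate 1.

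With all 6 libraries, Chrna5 had the largest log2 fold change in size among the 9 tested genes. Chrna7 exceeded it without MA replicate 3 and with sample quality weights, and Chrm4 did without MA replicate 1 and, by a narrow margin, without control replicate 1. It encodes an accessory subunit that joins α4β2 or α3β4 receptors and does not form the binding site for acetylcholine by itself, and it lies on chromosome 9 of GRCm38 from 54980880 to 55007779. Its log2 levels were 1.38, 1.37 and 1.21 in control replicates 1, 2 and 3 and 0.81, 0.96 and 0.87 in MA replicates 1, 2 and 3. The MA libraries all lay below the control libraries, by at least 0.25. The log2 fold change was -0.44 (standard error 0.11, 95% interval -0.69 to -0.19), or a fold of 0.737 on the scale of RPKM plus 1, which understates the change of a gene at this level. The unadjusted p was 0.00427 and the adjusted p 0.238 (limma), and the exact two-sided permutation test returned p = 0.1. In the linear unit the levels were 1.32 to 1.61 RPKM in the control and 0.757 to 0.947 RPKM in the MA libraries.

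Chrna3 and Chrnb4, which form a gene cluster with Chrna5, did not share this pattern. Chrna3, named here after its values were seen, had log2 levels of 0.67, 0.41 and 1.39 in the control and 1.08, 0.92 and 0.98 in the MA libraries. Chrnb4 read 0.53, 0.071 and 0.69 in the control and 0.83, 0.54 and 0.75 in the MA libraries. Both subunits are abundant in the medial habenula, and in both genes control replicate 3 was the highest control library. The habenular gene Gpr151, one of the markers used below, was also highest among controls in replicate 3. Its log2 levels were 0.42, 0.47 and 1.73 in the control and 2.05, 1.63 and 1.33 in the MA libraries. Of the other thalamic and habenular markers, Tcf7l2, Lef1, Slc17a6, Ntng1, Plekhg1 and Tac2 were also highest among controls in replicate 3. Rgs16 and Synpo2 were highest in control replicate 2 and Prkcd in control replicate 1. The part of such tissue in the Chrna3 and Chrnb4 values was not tested.

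Chrna4 and Chrnb2 encode the subunits of the α4β2 receptor, the main high-affinity nicotinic receptor of the brain. They lie on chromosome 2 from 181018380 to 181043546 and on chromosome 3 from 89746195 to 89764632. Chrnb2 was the steadiest of the 10 genes in the MA libraries, with log2 levels of 3.75, 3.77 and 3.78, against 3.75, 3.87 and 3.80 in control replicates 1, 2 and 3, and the groups overlapped. Its log2 fold change was -0.044 (standard error 0.081, 95% interval -0.23 to 0.15, limma adjusted p = 0.903). Chrnb2 shares 1365 exonic bases with Adar on the opposite strand, so that part of its signal cannot be told apart from Adar where counting did not use strand. Chrna4 varied more, with log2 levels of 1.91, 2.58 and 2.78 in the control and 2.81, 2.35 and 2.25 in the MA libraries. Control replicate 1 was the lowest and MA replicate 1 the highest, and the log2 fold change was 0.047 (standard error 0.25, 95% interval -0.53 to 0.62, limma adjusted p = 0.968). The log2 ratio of Chrnb2 to Chrna4 RPKM was 1.59 ± 0.53 in the control and 1.48 ± 0.37 in the MA libraries (SD with n = 3 per group, exact two-sided permutation p = 0.9).

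Chrna7 encodes the α7 subunit, which forms calcium-permeable receptors on its own and is prominent on hippocampal interneurons, and it lies on chromosome 7 of GRCm38 from 63098692 to 63212569. Its log2 levels were 2.42, 2.19 and 2.48 in control replicates 1, 2 and 3 and 3.13, 3.12 and 1.73 in MA replicates 1, 2 and 3. Both MA replicates 1 and 2 exceeded each control library, and MA replicate 3 fell short of each. With all 6 libraries the log2 fold change was 0.30 (standard error 0.36, 95% interval -0.54 to 1.14, limma adjusted p = 0.836), and the exact two-sided permutation test returned p = 0.6. Without MA replicate 3 it was 0.77 with an adjusted p of 0.0328, in a fit in which 257 genes, 1.93% of those tested, passed the threshold (limma). Without MA replicate 1 it was 0.064 and without MA replicate 2 it was 0.069. Over the alternative settings of the analysis its adjusted p ran from 0.0328 to 0.981 (limma), and leaving out MA replicate 3 was the only one of them under which any of the 9 tested genes passed.

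Markers of thalamic and habenular neurons, which lie next to the hippocampus in the brain, had their highest summed level in MA replicates 1 and 2. All 10 of 10 such markers had a higher mean in the MA libraries, while 52.7% of all tested genes had a lower one. Of these markers, 0 passed the adjusted threshold (limma). An unadjusted p-value under 0.05 (limma) was reached by 0 of them, beside 10.4% of all tested genes. Their summed level was 38.6, 39.2 and 67.9 RPKM in control replicates 1, 2 and 3 and 97.0, 98.4 and 50.9 RPKM in MA replicates 1, 2 and 3. Without MA replicate 3, 7 of the 10 did not overlap between the groups, beside 42.9% of all tested genes in this comparison of 2 libraries with 3, and 1 passed the adjusted threshold (limma). Their part in the Chrna7 values was not tested. In Chrna4 and Chrm2, control replicate 1 was the lowest control library and MA replicate 1 the highest MA library. The part of the thalamic and habenular markers in the values of these 2 genes was not tested.

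**Figure D3:**
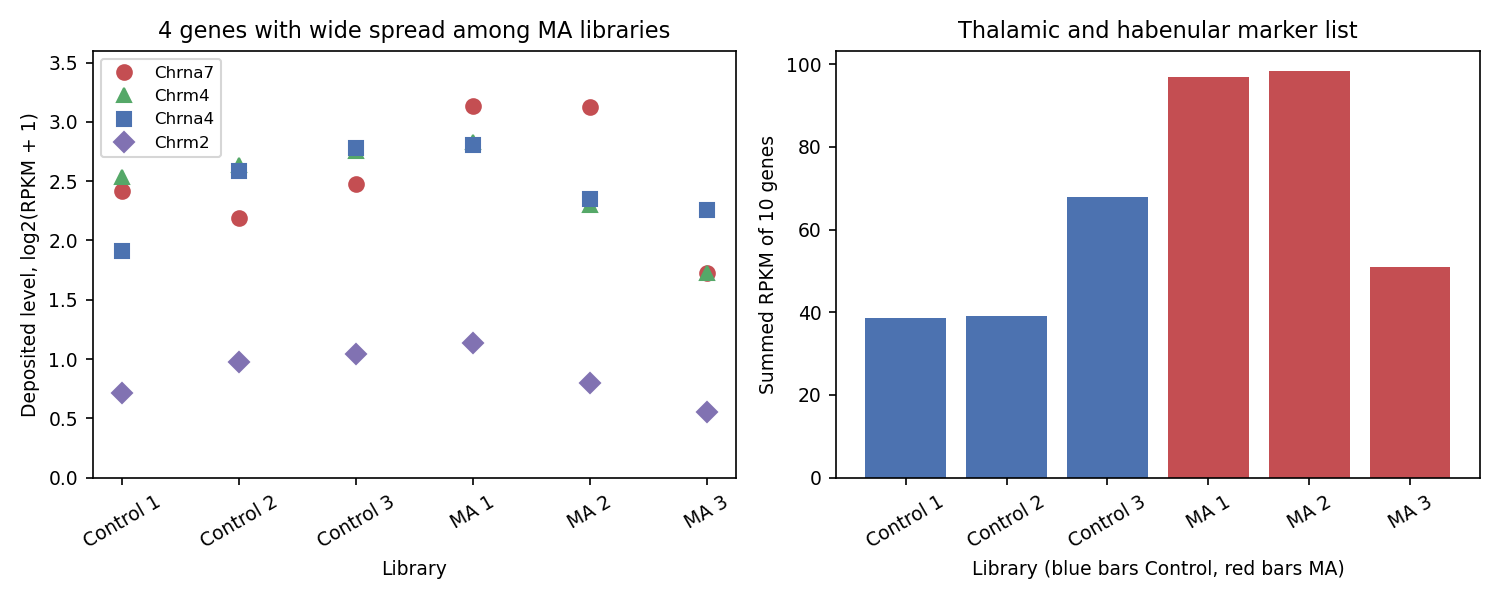
Left, deposited level (log2 of RPKM plus 1) of Chrna7, Chrm4, Chrna4 and Chrm2 in each library. Right, summed RPKM of 10 thalamic and habenular marker genes in the same libraries (control in blue, MA in red), which was 97.0 and 98.4 in MA replicates 1 and 2 and between 38.6 and 67.9 in the other 4 libraries.

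Ache lies on chromosome 5 of GRCm38 from 137287519 to 137294466, and the enzyme it encodes is anchored at synapses by the protein product of Prima1 and is also carried on the surface of erythrocytes. Its log2 levels were 4.55, 4.52 and 4.74 in control replicates 1, 2 and 3 and 4.91, 4.86 and 4.84 in MA replicates 1, 2 and 3. Each MA library exceeded each control library, by at least 0.095, and in the linear unit the levels were 22.0 to 25.7 RPKM in the control and 27.6 to 29.1 RPKM in the MA libraries. The log2 fold change was 0.27 (standard error 0.089, 95% interval 0.06 to 0.47), a fold of 1.20. The unadjusted p was 0.0190 and the adjusted p 0.369 (limma), and the exact two-sided permutation test returned p = 0.1. The summed blood and choroid plexus markers given above were likewise higher in each MA library than in each control library, and their part in the Ache difference was not tested. Ache shares 98 exonic bases with a long noncoding RNA gene on the opposite strand.

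**Figure D4:**
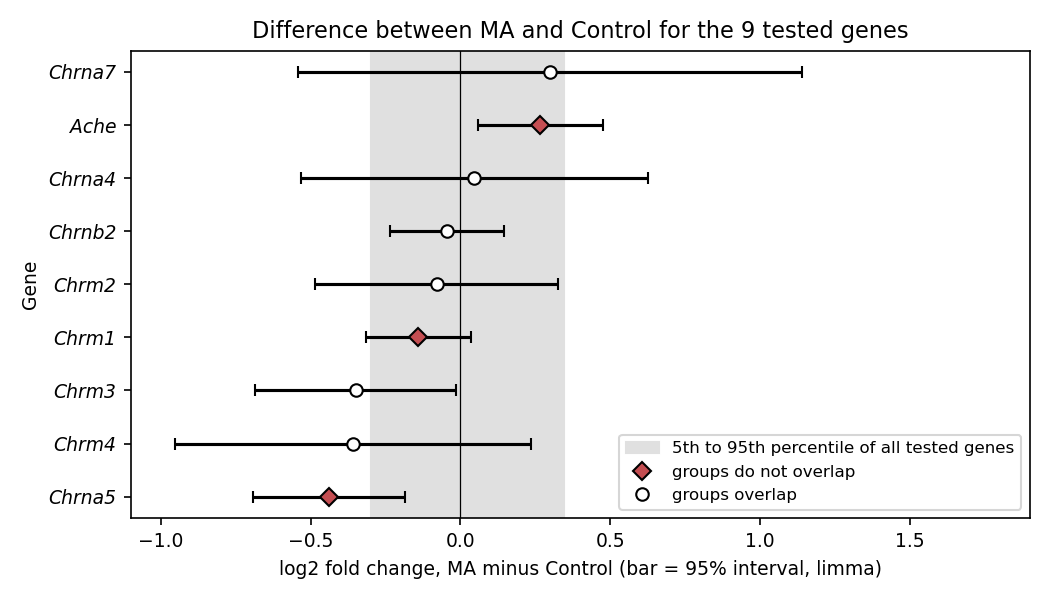
Log2 fold change of the 9 tested genes, MA minus control, with 95% intervals from limma and, in grey, the 5th to 95th percentile of all 13321 tested genes (-0.30 to 0.35). Red diamonds mark Chrna5, Chrm1 and Ache, whose groups do not overlap, and the widest interval is that of Chrna7, from -0.54 to 1.14.

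Of 27 other genes of acetylcholine supply, nicotinic receptor composition and nicotinic receptor assembly, 24 had a row, 13 were tested and 0 passed the adjusted threshold (limma). An unadjusted p-value under 0.05 (limma) was reached by 1 of the 13, beside 10.4% of all tested genes. That gene was Ly6h, a small membrane-anchored protein that restrains nicotinic α7 receptors. Its log2 levels were 8.15, 8.28 and 8.11 in the control and 8.52, 8.52 and 8.56 in the MA libraries. It was the 1 of the 13 without overlap, beside 17.5% of all tested genes. The log2 fold change of Ly6h was 0.36 with a standard error of 0.074 and a limma adjusted p of 0.166. The adjusted p was 0.0345 with sample quality weights, a setting that gives MA replicate 3 the lowest weight and under which 586 of all tested genes passed (limma). When 1 library was left out, the adjusted p of Ly6h ran from 0.0625 to 0.632 (limma). All 7 of the 7 tested genes for receptor chaperones and Ly6 proteins had a higher mean in the MA libraries, with a median log2 fold change of 0.12 against -0.010 over all tested genes. Of all tested genes, 52.7% had a lower mean in the MA libraries. Ric3, a chaperone for α7 receptors, read 3.57, 3.64 and 3.52 in the control and 3.93, 3.91 and 3.59 in the MA libraries as log2 levels, with MA replicate 3 within the control range (limma adjusted p = 0.546).

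Bche, butyrylcholinesterase, the second enzyme that cleaves acetylcholine, had log2 levels of 0.47 to 0.65 in the control and 0.52 to 1.01 in the MA libraries (limma adjusted p = 0.867). Prima1, the membrane anchor of acetylcholinesterase, had log2 levels of 0.87 to 1.06 in the control and 0.90 to 1.23 in the MA libraries (limma adjusted p = 0.887), without the separation seen in Ache. Of the other nicotinic subunits, 9 of 12 had a row and 3 were tested. Chrnb1, known from the muscle receptor, had a log2 fold change of 0.18 and Chrnb4 of 0.28, with limma adjusted p-values of 0.719 and 0.657.

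Downstream of the muscarinic receptors, 26 of 27 listed genes were tested and 0 passed the adjusted threshold (limma). An unadjusted p-value under 0.05 (limma) was reached by 1 of the 26, beside 10.4% of all tested genes. The groups did not overlap in 2 of the 26, Kcnq3 and Adrbk2, beside 17.5% of all tested genes. The Gq/11 arm, with the G protein subunits, phospholipase C and protein kinase C isoforms and the Kcnq potassium channels that muscarinic receptors close, had a median log2 fold change of -0.0083 over 13 genes. Kcnq3, a subunit of these M-type channels, read 3.90, 3.78 and 3.78 on the log2 scale in the control and 3.53, 3.77 and 3.41 in the MA libraries. Its log2 fold change was -0.25 (limma adjusted p = 0.516). Its groups were barely apart, with 3.775 in control replicate 2 against 3.774 in MA replicate 2. Prkcb, a protein kinase C isoform, had a log2 fold change of -0.24 with overlapping groups (limma adjusted p = 0.511). The Gi/o arm had a median of -0.017 over 7 genes, and Gnai3 and Gnai2, its G protein alpha subunits with the smallest p, had log2 fold changes of -0.16 and -0.057 (limma adjusted p-values of 0.652 and 0.891). Without MA replicate 3 these medians were 0.053 and 0.19. Adrbk2, a kinase that phosphorylates active G protein-coupled receptors, read 3.63, 3.96 and 3.91 in the control and 4.27, 4.29 and 3.99 in the MA libraries as log2 levels. It was the gene at an unadjusted p-value under 0.05, without overlap of the groups (log2 fold change 0.35, unadjusted p = 0.0271, adjusted p = 0.413, limma). Arrb1, an arrestin, had a log2 fold change of 0.18 (limma adjusted p = 0.735).

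**Figure D5:**
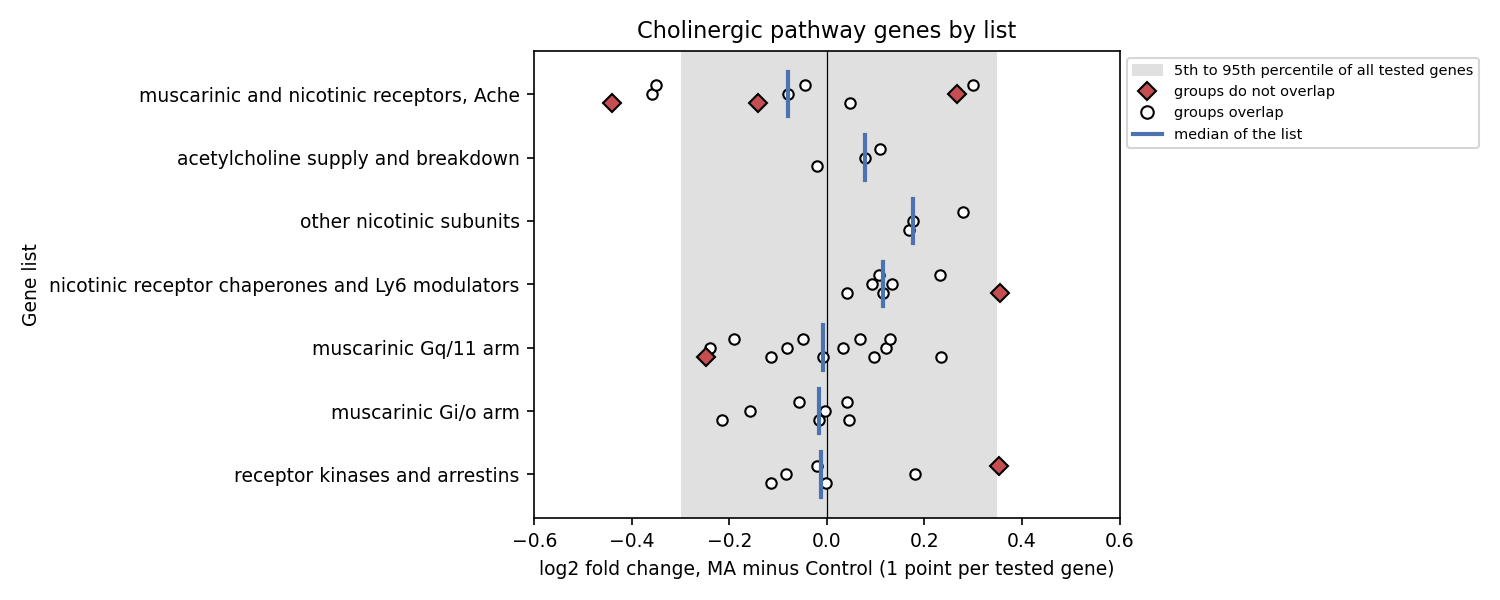
Log2 fold change (MA minus control) of each tested gene of the receptor and acetylcholinesterase genes and of 6 lists of cholinergic pathway genes, with the median of each list in blue and the 5th to 95th percentile of all tested genes in grey. The 7 chaperone and Ly6 genes all lie to the right of 0, and the genes without overlap of the groups are drawn as red diamonds.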

How the data were processed

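Hippocampal RNA of 3 control and 3 MA mice was measured, and the genes described and the gene lists were chosen with earlier results of these data known. According to the study's methods, the authors used Hisat2 for alignment and featureCounts for counting, and scaled counts by gene length, whereas the submitters' processing notes name Bowtie 0.12.2 and the builds mm8 and mm9. The kits named also differ between methods and labels. The authors deposited 1 table named as RPKM, whose values are on a log scale read as log2, with an offset of 1 inferred from the lowest value of 0. That log step and the normalization between libraries are not described. Library depth is unknown.

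Genes that reached 0.5 on the RPKM scale in 3 or more of the 6 libraries, 13321 in all, were fitted with limma 3.58.1 in R 4.3.3 (lmFit, eBayes with trend, MA minus control, no covariate, Benjamini-Hochberg adjustment, threshold 0.05). The labels name no litter, cage or batch, so p-values measure only the spread between these libraries. For shares, ratios and sums an exact permutation test (two-sided) was run. The fit was checked on simulated tables with known changes larger than those of the genes described here. That check does not show whether changes of their size would be called. The text names all 10 genes and, per further list, the called genes or, with none called, the 2 with the smallest p, and, for the gene with the largest change with all libraries, the 3 genes most like it over 6 libraries. Coordinates are from GENCODE M21 on GRCm38 by Ensembl identifier, for location only. The alternatives tried are given at the end of the text.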

Additional observations from a re-analysis of the deposited data

How the results depend on the processing

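No tested gene among the 9 changed its side of the adjusted threshold (limma) under another pseudocount, filter, normalization, variance model, weighting or the replicate block, and 1, Chrna7, did so without MA replicate 3, so the number called ran from 0 to 1 when 1 library was left out. Over all genes, the number called was 35 as reported, 20 with a minimum mean of 5, 3 with no filter, 586 with sample quality weights and 15 with the replicate block. It was 3, 0 and 0 without control replicates 1, 2 and 3 and 15, 0 and 257 without MA replicates 1, 2 and 3. Ly6h was the 1 other cholinergic gene called with sample quality weights. Libraries with the same replicate number did not deviate in the same direction (correlations of -0.197, -0.242 and -0.337 for replicates 1, 2 and 3). The labels name nothing else that they share, and whether they shared a cage or batch is not given. With the replicate block 0 of the 9 genes passed. Directions that turned were all of differences that had not passed. When 1 library was left out, the log2 fold change of Chrm2 ran from -0.23 to 0.058 and that of Chrna4 from -0.21 to 0.22. Chrm2 became 0.058 without MA replicate 3, and Chrna4 became -0.0029 with sample quality weights, -0.21 without control replicate 1 and -0.12 without MA replicate 1. Chrm5, which was not tested, turned from 0.072 to -0.073 without MA replicate 2. In the same way, the difference in the Chrm1 share ran from 0.758 (without MA replicate 3) to 4.62 percentage points (without MA replicate 1), that in the Gi/o-coupled share ran from -3.20 to 0.85 percentage points, and that in the log2 ratio of Chrnb2 to Chrna4 from -0.34 to 0.18. The turns were 0.85 without MA replicate 3 for the share, and 0.18 without control replicate 1 and 0.097 without MA replicate 1 for the ratio. Chrna5, Chrm1, Chrm3, Chrm4, Chrna7, Chrnb2 and Ache kept their direction under each alternative that could be run, which leaves out the minimum mean of 5 for the genes below it. The log2 fold change of Chrna5 ran from -0.76, with a pseudocount of 0.1, to -0.41. Without the depth of each library, levels near 0, as for Chrm5 and Chrm2, have no counting error that could be given.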

Other observations

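The 3 genes whose levels were most like those of Chrna5 over the 6 libraries were Grem1, Rbm4 and Slc17a8, with Pearson's r of 0.993, 0.992 and 0.992. These are the highest values among all tested genes over only 6 points that share the same libraries and the same normalization, and they are given as a description. Slc17a8, the vesicular glutamate transporter VGLUT3, had log2 levels of 1.23, 1.17 and 1.04 in control replicates 1, 2 and 3 and 0.77, 0.91 and 0.83 in MA replicates 1, 2 and 3 (a log2 fold change of -0.31 with a limma adjusted p of 0.388). Grem1 had a log2 fold change of -0.50 with an adjusted p of 0.220, and Rbm4 one of -0.39 with an adjusted p of 0.245 (limma).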
